A study of Mus musculus with 8 samples.

Results

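Of the 40816 peaks called with the HA antibody ab9110 in DMSO-treated EHMT2-dTAG mouse embryonic stem cells (mESCs), 2252 lay away from annotated transcription starts, were called again after EHMT2 was depleted with dTAG, and had no peak of the HA antibody C29F4. They made up 5.52% of the list and are called the shared distal peaks here. They were chosen by 4 conditions. The DMSO peak overlapped a dTAG peak by at least 1 bp and overlapped no C29F4 peak. It lay on chromosomes 1 to 19, X or Y, and its summit, the base with the highest fragment coverage, was more than 1 kb from every GENCODE M21 transcript start. The peaks were therefore selected on being called in both treatments, and their ab9110 signal in DMSO and dTAG is given only as a description.

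The series measured where HA-tagged EHMT2 sits on chromatin, by chromatin immunoprecipitation sequencing (ChIP-seq). All samples came from the EHMT2-dTAG-mcherry line, a BL6/129 hybrid mESC line whose endogenous Ehmt2 gene carries a degron with an HA tag, and were collected after 24 h in DMSO or dTAG. There were 8 samples, with 1 ChIP and 1 input of ab9110 for each treatment, and 2 ChIP and 2 inputs of C29F4 from DMSO-treated cells. The C29F4 replicates were merged before peaks were called, so each condition was represented by 1 list, and no difference between lists has a replicate check. The lists compared were ab9110 DMSO (40816 peaks), ab9110 dTAG (16324), C29F4 DMSO (11010) and ab9110 dTAG input (2050). The inputs of the DMSO samples were not analysed here.

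EHMT2, also known as G9a, acts with EHMT1 to place mono- and dimethylation on lysine 9 of histone H3, a mark of silent chromatin away from constitutive heterochromatin. The dTAG molecule bridges the degron to an E3 ubiquitin ligase, so the tagged protein is degraded and an HA antibody should lose its target. Why a peak was called in both treatments was not tested. Distal open chromatin in mESCs is mostly enhancers, bound by pluripotency factors such as OCT4, SOX2, NANOG, ESRRB and the KLF proteins.

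The sequences under the summits of 7 shared distal peaks show the short patterns that the peaks were searched for. The first 6 lie within 50 kb of a gene of a fixed pluripotency list, and the last is the peak with a KLF pattern near its summit and the highest DMSO fold. Each line gives 100 bp of the mm10 (GRCm38) plus strand around the DMSO summit, 5′ to 3′. Capitals mark the OCT4-type POU octamer (ATGCAAAT), the ESRRB response element (TCAAGGTCA) or the KLF box (GGGNGTGG), on either strand.
Dppa3 upstream peak, chr6:122624663-122624762: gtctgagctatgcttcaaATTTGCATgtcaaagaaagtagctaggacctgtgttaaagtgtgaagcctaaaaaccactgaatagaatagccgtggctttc
Zfp42 downstream peak, chr8:43288134-43288233: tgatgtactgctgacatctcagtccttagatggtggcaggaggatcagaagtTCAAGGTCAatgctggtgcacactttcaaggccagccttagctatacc
Klf2 upstream peak, chr8:72311237-72311336: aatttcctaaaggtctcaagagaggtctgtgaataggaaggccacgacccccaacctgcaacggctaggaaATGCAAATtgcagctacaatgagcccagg
Esrrb intron peak, chr12:86479039-86479138: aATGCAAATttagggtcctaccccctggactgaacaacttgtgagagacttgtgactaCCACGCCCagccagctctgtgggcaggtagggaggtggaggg
Tfcp2l1 intron peak, chr1:118648090-118648189: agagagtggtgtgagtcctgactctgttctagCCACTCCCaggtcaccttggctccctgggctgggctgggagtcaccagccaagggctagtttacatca
Klf4 downstream peak, chr4:55514988-55515087: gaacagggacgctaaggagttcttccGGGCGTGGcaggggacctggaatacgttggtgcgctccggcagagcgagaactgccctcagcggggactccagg
Ttc39b peak, chr4:83329759-83329858: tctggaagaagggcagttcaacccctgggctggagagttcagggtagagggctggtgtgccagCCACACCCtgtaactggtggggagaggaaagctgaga

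In the Esrrb peak a POU octamer and a KLF box shared the window. It had 18 fragments at its summit in DMSO and 19 in dTAG, with folds of 3.6 and 4.14. The Dppa3 window, 1697 bp upstream of the gene's start, had 26 and 13 fragments, with folds of 5.00 and 3.94. The windows were chosen after their values were seen, from the 456 shared distal peaks with at least 1 of the 3 patterns within the 200 bp around the summit.

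A second set shows other kinds of sequence among the same peaks. The first has the E-box GTCACGTG, the second the NRF1 site GCGCATGCG, the third the core of the CTCF motif, and the last is the peak with the highest DMSO fold, a tandem repeat in which no pattern is marked.
D030056L22Rik peak, chr19:18711023-18711122: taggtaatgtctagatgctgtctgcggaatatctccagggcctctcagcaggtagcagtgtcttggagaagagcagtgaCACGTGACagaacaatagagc
Klhdc4 intron peak, chr8:121826456-121826555: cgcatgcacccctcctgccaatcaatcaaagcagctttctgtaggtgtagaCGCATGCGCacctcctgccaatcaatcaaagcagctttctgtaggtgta
X chromosome peak, chrX:47136925-47137024: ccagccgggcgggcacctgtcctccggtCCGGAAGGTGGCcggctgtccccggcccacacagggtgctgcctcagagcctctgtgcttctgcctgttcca
9330175M20Rik intron peak, chr1:51230046-51230145: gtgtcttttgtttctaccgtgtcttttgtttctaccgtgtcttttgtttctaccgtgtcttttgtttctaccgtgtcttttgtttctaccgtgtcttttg

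The 9330175M20Rik window is a short unit written over and over. Its 400 bp around the summit matched itself in 74.3% of positions when shifted by 18 bp, and it had 115 fragments in DMSO and 84 in dTAG. The Klhdc4 window also sits in a tandem array, which matched itself in 98.0% of positions at a shift of 51 bp. The X chromosome window lay 243458 bp from the nearest gene, the processed pseudogene Gm14609, and 92.0% of the bases in its peak were soft-masked, the marking of repeats in the reference.

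To see how often a distal ab9110 peak with no overlapping C29F4 peak was called again after depletion, the shared distal peaks were set beside all peaks that could have joined them. Of 27184 distal DMSO peaks without a C29F4 peak, 2252 overlapped a dTAG peak (8.28%, exact 95% interval 7.96 to 8.62%). Over all ab9110 DMSO peaks on these chromosomes the share was 18.9% (7719 of 40813). Among start-proximal peaks without C29F4, with the summit within 1 kb of a start, it was 50.3% (3130 of 6226, 49.0 to 51.5%). Among distal peaks with C29F4 it was 30.7% (2096 of 6820, 29.6 to 31.8%). DMSO fragments rebuilt from the peak list were also thinned to the depth of the dTAG library, which left fewer peaks. The shares were then 24% of 5292 distal peaks without C29F4 (22.8 to 25.2%) and 38.3% of all 12743 peaks left. They were 71.1% of 2047 start-proximal peaks without C29F4 (69.1 to 73%) and 39% of 4990 distal peaks with C29F4 (37.7 to 40.4%). These shares describe only the peaks left by the thinning, not the full sets above. All intervals cover counting error only, since neighbouring peaks are not independent and each library was sequenced once.

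The share called after dTAG changed with distance from a start also beyond the 1 kb limit. It was 16.8% (15.3 to 18.3%) for peaks 1 to 2.5 kb from a start and 12% (10.8 to 13.2%) from 2.5 to 5 kb. From 5 to 10 kb it was 10.1% (9.24 to 11%), from 10 to 50 kb 6.87% (6.43 to 7.34%), and beyond 100 kb 3.01% (2.31 to 3.86%). It also changed with base composition, from 3.29% (2.62 to 4.07%) where the 200 bp around the summit were below 40% GC to 15.3% (13.6 to 17.1%) at 60% GC or more. The share moved in 1 direction across each of them.

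At the limit itself, the shared distal peak closest to a start lay on chromosome 10 from 67003888 to 67004410, with its summit 1004 bp from the start of the antisense gene Gm31763 and 18 fragments in DMSO and 27 in dTAG. Just inside the limit, and therefore not counted, was a peak with 24 and 16 fragments, 996 bp from the start of Mxd3 and spanning 55330165 to 55331277 on chromosome 13. The nearest dTAG summits lay 732 and 759 bp from the DMSO summits of these peaks, outside both DMSO peaks. Their dTAG fragments may therefore belong to neighbouring sites, and the sides of the limit are not compared.

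Fragment numbers at the summits were rebuilt from the fold and the p-value that the authors' peak caller gave. In DMSO the shared distal peaks had a median of 19 fragments (quartiles 15 and 25, range 9 to 249) over a local background of 4.42. After dTAG they had a median of 13 (10 and 16, range 7 to 201) over 2.31. The median fold enrichment, the fragments over background with 1 added to each, was 3.56 in DMSO (3.03 to 4.44) and 3.95 in dTAG (3.58 to 4.75). Whether an input library set this background is not given in the sources used here, which bears on the folds, the backgrounds and the coverage ratio. The dTAG fold was the higher in 1499 of 2252 peaks (66.6%). Being called in dTAG was a condition of the selection. The lowest −log10 p was 4.28 in the dTAG list and 3.85 in the DMSO list. The part of selection and depth in the higher dTAG folds was not tested.

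The dTAG library was shallower. Its mean coverage, read from the lowest background of each list, was 0.582 of that in DMSO. The ratio of fragments, dTAG to DMSO, had a median of 0.667 over the shared distal peaks (quartiles 0.545 and 0.812), and it exceeded 0.582 in 1523 peaks (67.6%). Only 168 peaks (7.46%) had more fragments in dTAG than in DMSO. In 77 peaks (3.42%) the ratio was over 2 times the coverage ratio, and in 11 (0.488%) it was under 50% of it. The corresponding medians were 0.810 for start-proximal peaks of both treatments and 0.347 for distal peaks with C29F4. Peaks near the calling threshold in dTAG enter only when their fragments there are high enough, which raises the ratios of weak members, and no test was made of these values.

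**Figure D1:**
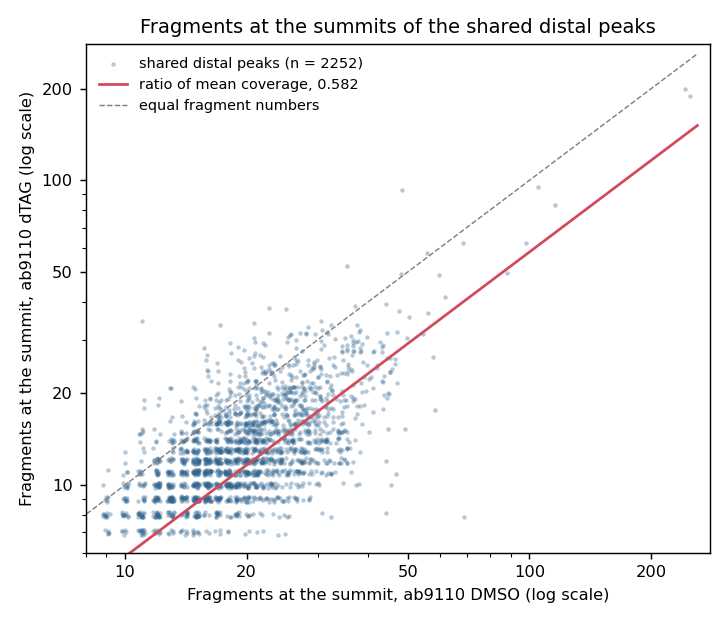
Fragments at the summit in ab9110 DMSO (x axis) and ab9110 dTAG (y axis) for the 2252 shared distal peaks, both on log scales, with points moved slightly apart. The solid line is the ratio of mean coverage, 0.582, and the dashed line equal numbers. 1523 points lie above the solid line, 168 lie above the dashed line, and the pair at the upper right are the Def8 peaks that overlap input peaks.

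Because a shared distal peak had to overlap a dTAG peak, short distances between summits follow in part from the selection. The distance from the DMSO summit to the nearest dTAG summit had a median of 103 bp (quartiles 43 and 231). It was at most 250 bp in 1733 peaks (77.0%). No reference distance was counted, and the nearest dTAG summit need not belong to the overlapping peak. The 2252 peaks met 2155 dTAG peaks, and 57 met more than 1. The Spearman correlation across peaks was 0.572 for fragments and 0.198 for folds (n = 2252, a description, since both libraries share the mappability and copy number of the sequence). The shared distal peaks were wide, with a median of 703 bp (453 to 1031), against 339 bp for distal peaks of DMSO only and 1320 bp for distal peaks with C29F4. A wide peak has more room to overlap, and the part of width in the overlap was not tested.

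Few shared distal peaks overlapped a peak called in the dTAG input. The input signal at these sites was not measured. The input list had a lower mean coverage than either ab9110 ChIP list. Its lowest −log10 p was 5.85, against 4.28 in the dTAG list and 3.85 in the DMSO list. The lack of an input peak therefore does not show a lack of input enrichment. Only 9 of the 2252 peaks (0.400%, 0.183 to 0.757%) overlapped a dTAG input peak, against 83 of 24932 DMSO-only distal peaks (0.333%, 0.265 to 0.413%). Of the 9, 2 lay in introns of Def8 on chromosome 8, from 123425842 to 123426296 and from 123433957 to 123434488. They had 245 and 249 fragments in DMSO and 201 and 186 in dTAG, over backgrounds of 170 and 145 in DMSO, and therefore folds of only 1.44 and 1.71.

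The peaks with the highest folds were not typical of the rest. After the 9330175M20Rik repeat, with a DMSO fold of 24.9 and a dTAG fold of 20.3, came a chromosome 18 peak spanning 83543484 to 83544397, with AC115789.4, a lincRNA gene, 18661 bp away. It had 68 and 61 fragments, folds of 17.5 in both treatments, and a sequence that matched itself in 92.5% of positions at a shift of 80 bp. The chromosome 6 peak spanning 149130580 to 149132023, at 683 bp from Gm10203, had 103 fragments in DMSO and 95 in dTAG, with folds of 15.1 and 27.3. These 3 peaks ranked among the 6 highest in both treatments.

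Other strong peaks were picked by their DMSO fold and not by their dTAG fold. Their dTAG folds were also above 4.75, the upper quartile of the dTAG folds of the shared distal peaks. On chromosome 12 from 19626828 to 19627561, a peak 4038 bp from the pseudogene Gm9257 had 45 fragments in DMSO and 10 in dTAG (folds 13.7 and 4.83), and 99.2% of its bases were soft-masked. The Ttc39b peak, on chromosome 4 from 83329242 to 83330950, lay 5554 bp from that gene and had 48 and 22 fragments (11.5 and 6.83). On chromosome 2 from 104818712 to 104819140, a peak 1280 bp from the pseudogene Gm13886 had 43 and 23 fragments (11.3 and 7.93). In all 3 the ratio of dTAG to DMSO fragments was below the ratio of coverage, most so in the Gm9257 peak.

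Among the 6 highest dTAG folds, 3 peaks were not among the 6 highest in DMSO. The peak 1823 bp from Tnrc18, on chromosome 5 from 142819235 to 142819672, had 48 fragments in DMSO and 94 in dTAG (7.14 and 29.8), but the summits were 1595 bp apart in a DMSO peak of 438 bp, so the dTAG summit lay outside it. The peak 1962 bp from Vpreb1, on chromosome 16 from 16864949 to 16867500, had 55 and 57 fragments (7.37 and 15.8). The peak 4593 bp from Fam25c, on chromosome 14 from 34359606 to 34360493, had 61 and 42 (9.03 and 12.2). In the last 2 the summits were 24 and 42 bp apart.

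Tandem repeats of the kind just described were counted over all peaks, as a 400 bp window that matched itself in at least 70% of positions at some shift up to 100 bp. They made up 43 of 2252 shared distal peaks (1.91%, 1.39 to 2.56%) and 483 of 24932 DMSO-only distal peaks (1.94%, 1.77 to 2.12%). Among the 50 shared distal peaks with the highest DMSO fold they were 6, and among the 50 with the highest dTAG fold 10. The tandem repeats had a median of 25 fragments in DMSO and 14 in dTAG.

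Where the shared distal peaks sat relative to genes was not used in choosing them, apart from the distance to starts. Intergenic sequence held 1200 summits (53.3%, 51.2 to 55.4%), introns 932 (41.4%, 39.3 to 43.5%) and exons 120 (5.33%, 4.44 to 6.34%). DMSO-only distal peaks were more often intergenic (57.6%, 57.0 to 58.2%) and less often exonic (2.90%, 2.69 to 3.11%), with intervals that did not overlap those of the shared distal peaks. Of the 1052 peaks inside genes, 890 had a protein-coding host listed first. The median distance to a start was 9060 bp (3611 to 21918), against 16779 bp for DMSO-only peaks, and 60 peaks (2.66%) lay beyond 100 kb. The nearest C29F4 peak was a median of 92776 bp away (28454 to 207799), against 75140 bp for DMSO-only peaks.

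Across chromosomes the density ran from 0.0109 peaks per Mb on Y and 0.398 on X to 1.25 on chromosomes 11 and 17. The share of the available distal C29F4-free peaks that was called after dTAG was 11.4% on both 11 and 17, and 10.7% on X, so X had few such peaks of either kind (635) rather than a low share.

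The sequence around the summits lay between that of start-proximal peaks and that of DMSO-only distal peaks. Median GC content in 200 bp was 50.5% (46.5 to 54.5%), against 48.0% in DMSO-only distal peaks, 62.5% in start-proximal peaks of both treatments, 61% in distal peaks with C29F4, and 41.5% in tiles of the genome. Soft-masked bases made up 31.1% of the shared distal peaks and 41.9% of the DMSO-only ones, 10.9% of the start-proximal ones and 64.7% of distal peaks with C29F4. In the genome the share was 36.4%.

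Long repeats were uncommon. A summit within 5 kb or more of continuous soft-masked sequence was found in 63 shared distal peaks (2.80%, 2.16 to 3.57%), against 6.74% (6.43 to 7.06%) of DMSO-only peaks and 48.1% (45.9 to 50.3%) of distal peaks with C29F4. The 63 had a median GC content of 63.5%, lay a median of 32655 bp from a start, and had 19 fragments in DMSO and 10 in dTAG at the median. Reads that fit several repeat copies were placed at 1 of them by the authors, so the position of these 63 is less certain.

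A CpG-rich subgroup stood out. In 231 shared distal peaks (10.3%, 9.03 to 11.6%) the 200 bp window held at least 10 CpG dinucleotides, against 5.38% (5.11 to 5.67%) of DMSO-only distal peaks and 75.4% of start-proximal peaks. Their median GC content was 63.5%, and 24 of them (10.4%) were exonic, against 4.75% of the 2021 other shared distal peaks. The NRF1 site, a CpG-containing site typical of promoters, occurred in 11 of the 231 (4.76%, 2.40 to 8.36%) and in 4 of the 2021 (0.198%, 0.0540 to 0.506%). The POU octamer occurred in 0 of the 231, which allows a share of up to 1.58%, and in 87 of the 2021 (4.30%, 3.46 to 5.28%). Because the NRF1 site itself holds CpGs, part of its difference follows from the grouping.

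The windows were searched for the patterns of 14 factors and 2 simple repeats, on both strands, and the same search was run on the 1323726 tiles of 200 bp sampled from the genome. A match to these letters is not a bound site. The KLF box (GGGNGTGG), the target of KLF2, KLF4 and related factors, occurred in 331 shared distal peaks (14.7%, 13.3 to 16.2%), in 10.8% (10.4 to 11.2%) of DMSO-only distal peaks, and in 4.52% of tiles. The POU octamer, the part of the OCT4-SOX2 element that OCT4 contacts, occurred in 87 (3.86%, 3.11 to 4.74%), against 2.17% (1.99 to 2.35%) and 1.72% of tiles. The ESRRB element occurred in 61 (2.71%, 2.08 to 3.47%), against 1.76% (1.60 to 1.93%) and 0.409% of tiles. For each of the 3, the interval of the shared distal peaks lay above that of the DMSO-only peaks.

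At start-proximal peaks of both treatments the order differed. There the POU octamer occurred in 0.703% (0.441 to 1.06%) and the ESRRB element in 0.256% (0.110 to 0.503%), the former below its share of tiles and the latter with an interval that included its own, while the KLF box occurred in 14.2% (13 to 15.4%). At least 1 of the 3 patterns occurred in 456 shared distal peaks (20.2%, 18.6 to 22.0%), 14.4% (14 to 14.9%) of DMSO-only peaks and 8.97% (7.78 to 10.3%) of distal peaks with C29F4. At least 2 kinds occurred together in 23 shared distal peaks (1.02%, 0.648 to 1.53%) and in 0.337% (0.269 to 0.417%) of DMSO-only peaks.

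**Figure D2:**
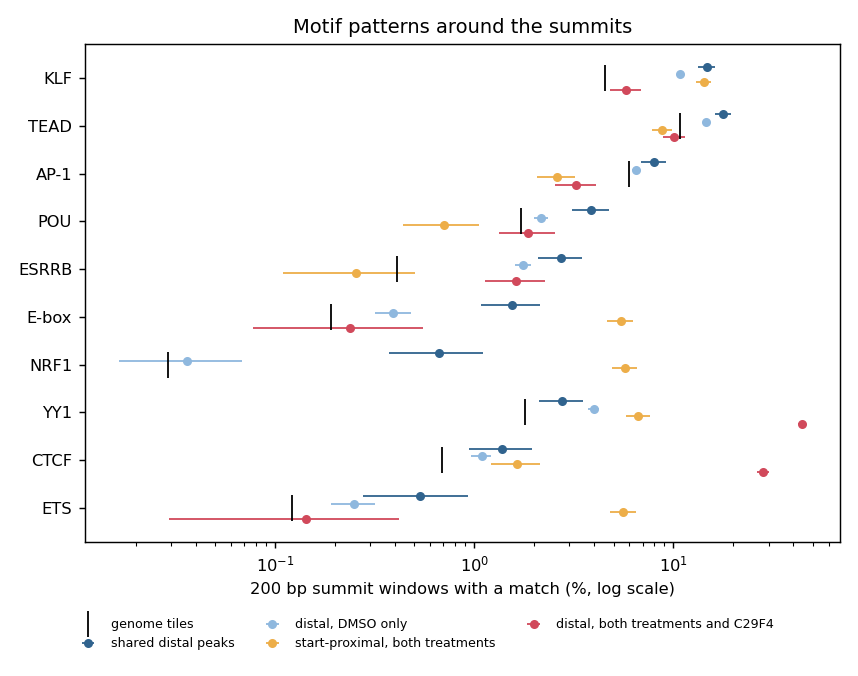
Share of 200 bp summit windows with a match to each of 10 patterns (x axis, log scale) in the shared distal peaks, DMSO-only distal peaks, start-proximal peaks of both treatments, and distal peaks of both treatments with C29F4. Bars are exact 95% intervals, vertical ticks the share of genome tiles, and a set with 0 matches has no point. The shared distal peaks lie above the DMSO-only peaks, with intervals apart, for KLF, TEAD, AP-1, POU, ESRRB, E-box and NRF1. They lie far below the peaks with C29F4 for YY1 and CTCF.

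Patterns typical of promoters were present at intermediate shares. The E-box GTCACGTG, bound by USF and related basic helix-loop-helix factors, occurred in 35 shared distal peaks (1.55%, 1.08 to 2.15%), against 0.393% (0.319 to 0.479%) of DMSO-only and 5.43% (4.66 to 6.28%) of start-proximal peaks. The NRF1 site occurred in 15 (0.666%, 0.373 to 1.10%), against 0.0361% and 5.72%. The ETS site CCGGAAGT occurred in 12 (0.533%, 0.276 to 0.929%), against 0.249% and 5.59%, and the CRE TGACGTCA in 6 (0.266%, 0.0978 to 0.579%), against 0.201% and 2.78%. For the last 2 patterns the interval of the shared distal peaks overlapped that of the DMSO-only peaks. ZNF143 and REST motifs, searched as longer strings, occurred in 0 of 2252 windows each, which allows up to 0.164%.

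Patterns frequent in the peaks with C29F4 were less frequent here. The YY1 pattern AAGATGGC occurred in 62 shared distal peaks (2.75%, 2.12 to 3.52%), against 44.2% (42.0 to 46.3%) of distal peaks with C29F4 3.97% (3.73 to 4.22%) of DMSO-only peaks and 1.8% of tiles. The CTCF core, the motif of the main insulator and loop-anchor protein, occurred in 31 (1.38%, 0.937 to 1.95%), against 28.1% (26.2 to 30.1%) of distal peaks with C29F4, 1.09% (0.962 to 1.22%) of DMSO-only peaks and 0.685% of tiles. The CTCF share of the shared distal peaks could thus not be told from that of DMSO-only peaks.

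The 3 CTCF-bearing peaks with the highest DMSO fold included the X chromosome peak printed above, with 44 fragments in DMSO and 8 in dTAG. The others were a peak in an intron of Smad4 on chromosome 18 from 73686860 to 73687732, with 44 and 12 fragments, and another on that chromosome, spanning 35757198 to 35758387 and 12470 bp from the pseudogene Gm16490, with 29 and 12. The folds of the 3, in this order, were 7.34, 7.34 and 6.02 in DMSO, by which they were picked, and 4.04, 3.66 and 3.66 in dTAG. The bases of the 3 were 92.0%, 79.5% and 58.2% soft-masked.

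Among the remaining patterns, the TEAD site CATTCC occurred in 400 shared distal peaks (17.8%, 16.2 to 19.4%), against 14.6% (14.2 to 15.1%) of DMSO-only peaks, and the AP-1 site TGANTCA in 179 (7.95%, 6.86 to 9.14%), against 6.49% (6.19 to 6.81%). The p53 motif, a long string, occurred in 3. Runs of CACACACAC and GAGAGAGAG occurred in 2.49% (1.88 to 3.22%) and 2.04% (1.5 to 2.72%), against 4.17% and 2.2% of tiles, so that the former lay below its share of tiles and the interval of the latter included it. None of the spelled patterns contains another, though neighbouring matches can share bases.

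The POU matches were gathered at the summit. In the bins of 50 bp on either side of the DMSO summit, a match was centred in 1.40% of shared distal peaks per bin on average, against 0.289% per bin between 400 and 500 bp away. In DMSO-only peaks the same values were 0.600% and 0.383%. For the ESRRB element they were 0.777% and 0.200% in shared distal peaks, and 0.515% and 0.165% in DMSO-only peaks. For the KLF box they were 4.31% and 2.15%, and 3.22% and 1.5%. The central POU value of the shared distal peaks rests on 63 matches and the outer value on 26.

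**Figure D3:**
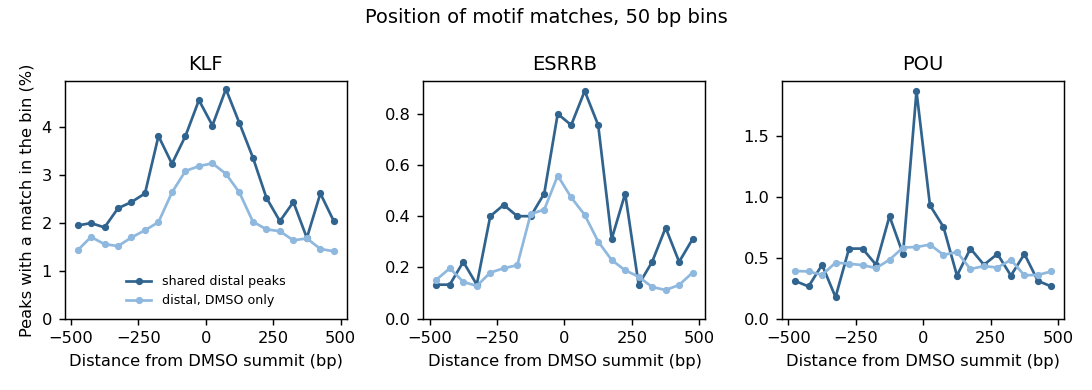
Share of peaks with a motif match centred in each 50 bp bin (y axis) against the distance from the DMSO summit up to 500 bp on either side (x axis), for KLF, ESRRB and POU. The dark line is the 2252 shared distal peaks and the light line the 24932 DMSO-only distal peaks. All 3 patterns are highest near the summit in the shared distal peaks, and POU reaches 1.87% in the bin just before it.

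To see which genes the shared distal peaks lay near, 4 gene lists were counted, each gene with its body and 50 kb on either side. Of 21938 protein-coding genes, 3410 (15.5%) had a shared distal peak in that space. In the list of 40 pluripotency and naive-state genes it was 30 (75%, 58.8 to 87.3%). The count was 14 when peaks up to 5 kb from a start were left out, and 17 with a q-value under 0.001. The share of all protein-coding genes was not counted at these settings, so these counts have no matching background. In the list of 22 genes of H3K9 methylation the main count was 11 (50.0%, 28.2 to 71.8%). In the list of 38 germ layer regulators it was 2 (5.26%, 0.644 to 17.7%), and in the list of 26 genes of the 2-cell state it was 1 (3.85%, 0.0973 to 19.6%). The intervals of the first pair of lists lay above the share of all protein-coding genes, and those of the other pair included it. These intervals treat genes as independent, but Lefty1 and Lefty2 were counted on the same peak. Clustered genes of the 2-cell list, such as Zscan4 and Obox, can also share space. Dppa2 and Dppa4 were in both the pluripotency and the 2-cell list. Longer genes take in more sequence, and the median gene length was 12.8 kb in the pluripotency list, 43.6 kb in the H3K9 methylation list, 6.38 kb in germ layer regulators, 4.81 kb in genes of the 2-cell state and 17.4 kb in all protein-coding genes.

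**Figure D4:**
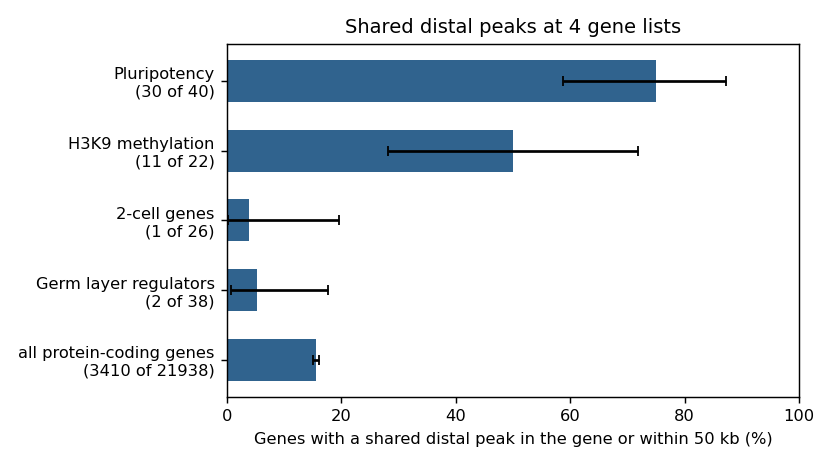
Share of genes with a shared distal peak in the gene or within 50 kb (x axis, %) for the 4 gene lists and for all protein-coding genes, with exact 95% intervals and the counts beside each bar. The pluripotency list, at 75%, and the H3K9 methylation list, at 50.0%, lie above the 15.5% of all protein-coding genes. The pluripotency count of 30 was 14 without peaks up to 5 kb from a start, a setting at which all protein-coding genes were not counted.

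DMSO-only distal peaks were more widespread. They were found at 37 of the 40 pluripotency genes (92.5%), 17 of 22 H3K9 methylation genes (77.3%), 27 of 38 germ layer regulators (71.1%) and 17 of 26 genes of the 2-cell state (65.4%), against 62.7% of protein-coding genes. Counted by peak, 49 of the 186 distal C29F4-free DMSO peaks near a pluripotency gene were called after dTAG (26.3%, 20.2 to 33.3%), against 8.28% of all such peaks. Near H3K9 methylation genes it was 20 of 66 (30.3%, 19.6 to 42.9%), near germ layer regulators 2 of 43 (4.65%, 0.568 to 15.8%), and near genes of the 2-cell state 1 of 32 (3.12%, 0.0791 to 16.2%). The peaks near pluripotency genes lay closer to starts. Up to 5 kb from a start it was 33.3% (22.9 to 45.2%) near pluripotency genes against 14.1% (13.2 to 15.1%) of all such peaks, and beyond 5 kb 21.6% (14.4 to 30.4%) against 6.89% (6.56 to 7.24%). GC content, fold and width were not matched, and their part in these shares was not tested. The genes' own expression was not measured in these files.

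Among the pluripotency genes with the strongest shared distal peaks by DMSO fold were Il6st, Zfp42 and Klf2. Il6st encodes gp130, the signalling subunit of the LIF receptor, and its peak 23.1 kb upstream had 35 fragments in DMSO and 13 in dTAG (folds 8.49 and 5.48). Zfp42 encodes the naive-state marker REX1 and had 3 peaks. The peak 14.3 kb upstream had 31 and 11 fragments (6.24 and 3.50), the peak 18.8 kb downstream of the start 22 and 15 (4.99 and 5.21), and the peak 27.4 kb downstream 25 and 20 (3.12 and 5.01). The Il6st peak and the upstream Zfp42 peak were lower in dTAG than the coverage ratio gives, and the downstream Zfp42 peaks were above it.

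Klf2, which encodes a naive-state transcription factor, also had 3. They lay 7746 bp upstream, 2831 bp upstream and 15.4 kb downstream of its start, with 30, 35 and 38 fragments in DMSO and 20, 24 and 32 in dTAG. The downstream peak had the highest dTAG fold of the 3, 7.78. At Klf4, the peaks lay 2779 bp, 17.4 kb and 54.6 kb downstream, with 17, 19 and 28 fragments in DMSO and 14, 15 and 13 in dTAG.

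Core factors were included. Pou5f1, which encodes OCT4, had a peak 1924 bp upstream of its start with 36 fragments in DMSO and 24 in dTAG (4.87 and 5.18). Nanog had a peak 4920 bp upstream with 33 and 26 fragments (4.08 and 5.59), and another 57.1 kb downstream in an intron of Slc2a3, with 27 and 20. Esrrb, which encodes an orphan nuclear receptor of the naive state, held 5 peaks in its introns. The peaks lay 104 to 141 kb from the annotated gene start, but 1218 to 8972 bp from the nearest Esrrb transcript start. Their DMSO fragments were 16, 25, 18, 36 and 44, in order along the gene, and their dTAG fragments 12, 15, 19, 20 and 32. For the peak with 25 and 15 fragments, the nearest dTAG summit lay 510 bp from the DMSO summit, outside that peak of 368 bp. Its dTAG fragments may therefore belong to a neighbouring site. Tdgf1, which encodes the Nodal co-receptor Cripto, had a peak 1410 bp upstream with 32 fragments in each treatment.

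**Figure D5:**
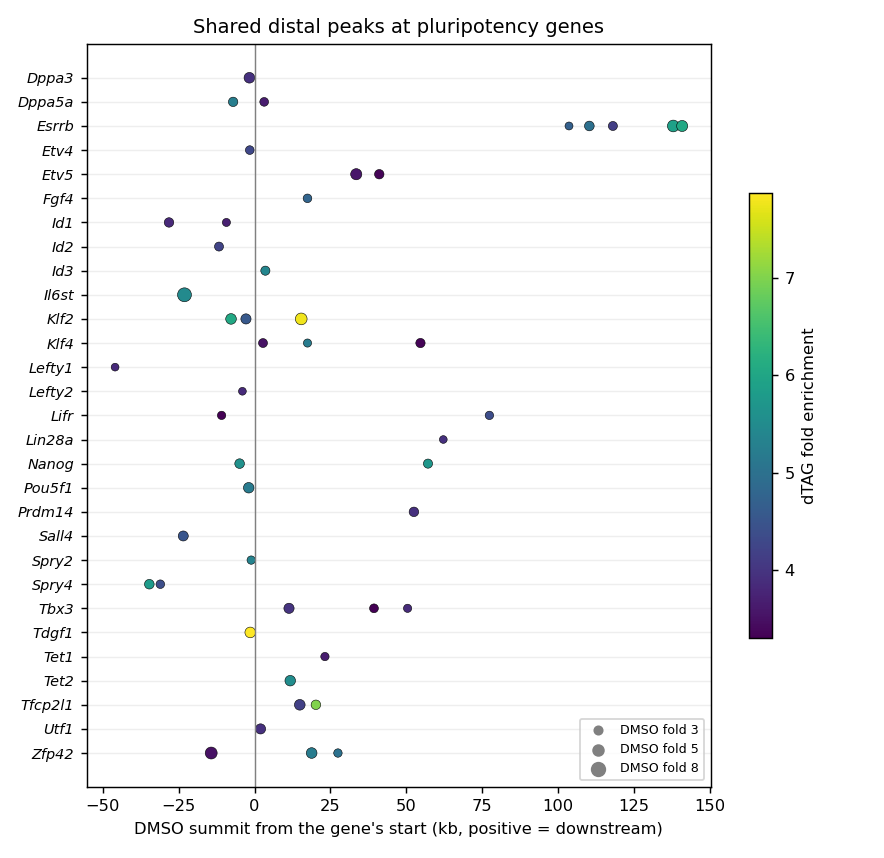
Position of each shared distal peak at 29 of the 30 pluripotency genes that had any, as the distance of its DMSO summit from the gene's annotated start in kb (x axis, negative upstream, positive downstream). Point area follows the DMSO fold and colour the dTAG fold. Esrrb carries 5 peaks, and Klf2, Klf4, Tbx3 and Zfp42 carry 3 each. Other transcript starts of a gene can lie closer to a peak, as at Esrrb.

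The 49 peaks at pluripotency genes had more fragments and were wider than the other 2203, with a similar fragment ratio. Their median fragments were 23 against 19 in DMSO and 15 against 12 in dTAG. Their median width was 887 bp against 700 bp. Their median DMSO fold was 3.92 (range 2.62 to 8.49) against 3.55, their median dTAG fold 4.38 (3.30 to 7.88) against 3.94, and their median fragment ratio 0.682 against 0.667. A KLF, POU or ESRRB pattern occurred in 13 of the 49 (26.5%, 14.9 to 41.1%) and in 20.1% (18.5 to 21.8%) of the others, with overlapping intervals. Soft-masked bases made up 20.8% of the former and 31.4% of the latter.

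The H3K9 methylation genes with the strongest peaks were Kdm3b, Kdm4a, Atf7ip and Zfp462. Kdm3b and Kdm4a encode demethylases of H3K9. Near Kdm3b the highest peak had 29 fragments in DMSO and 21 in dTAG (4.89 and 7.16), but it lay 614 bp from Egr1, an immediate early gene, and 88.6 kb from the start of Kdm3b. Near Kdm4a the highest peak, in an intron of Ptprf, had 26 and 14 (4.72 and 3.41). Atf7ip encodes a partner of the methyltransferase SETDB1. Of its 4 peaks the highest, 37.7 kb upstream, had 23 and 25 fragments (4.43 and 7.86). The adjacent peak 35.7 kb upstream, with 30 fragments in DMSO, had the same dTAG values. The highest Kdm3b peak also had the same dTAG values as its neighbour 87 kb from the start. Such neighbours may share a dTAG peak, so the dTAG values need not belong to either summit alone. Zfp462 encodes a zinc finger protein that recruits EHMT proteins, and its peak 18.4 kb upstream had 24 and 13 (4.26 and 5.18).

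Partners of EHMT2 and the gene itself were among the 11. Wiz, which encodes a zinc finger partner of EHMT1 and EHMT2, had 3 peaks in its body, with 18, 12 and 15 fragments in DMSO and 10 in dTAG at each. The latter pair were adjacent, had the same dTAG fold, 3.42, and may share a dTAG peak. The bases of the 3 were 98.7%, 100% and 54.6% soft-masked. In Ehmt2 a peak on chromosome 17, 13.6 kb downstream of the start in an intron, had 18 fragments in DMSO and 13 in dTAG (2.64 and 3.54). The tag was inserted into this gene, and whether its sequence adds reads there was not tested.

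The other lists had few. Among germ layer regulators, Zic2 had a peak 41.3 kb upstream with 21 and 11 fragments (4.06 and 3.41), and Olig2 a peak 28.8 kb downstream with 15 and 10 (3.43 and 4.03). Among genes of the 2-cell state, which mark a transient early-embryo-like state of mESCs, the only peak lay 56.1 kb downstream of the start of Usp17le, on chromosome 7 from 104720900 to 104721634. It had 24 and 10 fragments (2.22 and 3.76), and 100% of its bases were soft-masked. All 3 lay closer to other annotated genes.

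Counted by host, the gene span with the most shared distal peaks was Gm20388, on chromosome 8 from 119910841 to 124345722, with 15. This annotation spans many other genes, and the 15 include 4 peaks in Gse1, 2 in Klhdc4 and the 2 in Def8 that overlap input peaks. Without the Def8 peaks, DMSO fragments there ran from 17 to 49 and dTAG fragments from 12 to 30. Ctif, on chromosome 18 from 75431224 to 75697554, which encodes a translation initiation factor, and Esrrb followed with 5 each. The Ctif peaks had 17, 18, 24, 18 and 25 fragments in DMSO and 16, 11, 16, 16 and 25 in dTAG, in order along the chromosome, and the last had the highest dTAG fold, 7.32.

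Some shared distal peaks lay close to each other. Another such peak lay within 10 kb of 475 of them (21.1%), and 35 groups held 3 or more peaks, each within that distance of the next. The same share was not counted for DMSO-only or other peaks, so it has no background. The largest group held 5 peaks over 11.2 kb on chromosome 4, from 141281317 to 141292497, beside Epha2, which encodes an ephrin receptor, with 19 to 24 fragments in DMSO and 16 to 28 in dTAG. Of the 9 groups of 4 or more, 4 were on chromosome 4, and 1 of these lay beside Tmem51 with 18 to 24 and 11 to 25 fragments. Another, on chromosome 1 from 86525361 to 86532464, lay beside Ptma, the prothymosin gene, with 18 to 38 and 18 to 29. Neighbours in the Ptma group had equal dTAG folds, 7.87 or 4.31, and may share a dTAG peak. Neighbouring peaks of this kind are not independent sites in any of the counts given here.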

How the data were processed

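ChIP-seq of HA-tagged EHMT2 was analysed from deposited peak lists (narrowPeak). The authors aligned reads to mm10 with STAR, placed each multimapping read at 1 location, removed duplicates with Picard and reads in blacklisted regions, ran MACS2 on the paired-end fragments, keeping peaks with a q-value under 0.05 (submitters' processing notes: STAR 2.7.10, Picard 2.26.0, MACS2 2.2.6). The C29F4 replicates were merged by the authors and the ab9110 lists were called per library. The deposited values are an integer score, a fold enrichment (a ratio of pileup to background, 1 added to each), −log10 p, −log10 q and the summit offset.

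Groups followed the labels. Overlap, distance to GENCODE M21 starts, GC content, soft-masking (RefSeq copy of GRCm38) and motif matches in 200 bp summit windows were computed in Python 3.11.15. Fragments and background were rebuilt from fold and −log10 p. The lowest background of each list, its mean coverage, gave the ratio of dTAG to DMSO depth (0.582), and total reads were not given in the sources used here. Overlap calls and motif search were tested on simulated data against bedtools. Shares have exact Clopper-Pearson 95% intervals for counting error, and each condition had 1 list, so no test was made.

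The peaks and lists were chosen with earlier results of these data known. Named peaks are the 6 with the highest DMSO and the 6 with the highest dTAG fold without an input peak, the 3 with a CTCF core within 50 bp of the summit and the highest DMSO fold, the 3 genes holding most, those on either side of 1 kb, and the 4 genes per list with the highest fold, of which 1 is not reported here. Printed windows, tandem repeats, groups of neighbours and further list genes were chosen after values were seen. Alternatives were 2 stricter q-values, stricter overlap, 5 kb from starts, no C29F4 peak within 1 kb, no input peak, thinning to the dTAG coverage, other windows and, added later, other gene distances.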

Additional observations from a re-analysis of the deposited data

How the results depend on the processing

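No paired analysis was possible because each ab9110 condition was 1 library and the C29F4 replicates were merged before calling, and leaving out replicates was not possible for the same reason. Of 102 alternative values, 75 kept within the interval of the reported value or, for counts, within 1.5 times it. With a q-value under 0.01 there were 1386 shared distal peaks, called in 10.4% of the available peaks, with 29.9% soft-masked bases and 1 germ layer gene. Under 0.001 there were 741, with 11.4%, 28.1%, a fragment ratio of 0.727, 17 pluripotency genes, 0 germ layer genes and an ESRRB share of 4.05%. With 50% cover, the share called was 5.95%, soft-masked bases 29.2% and germ layer genes 1, and with summits at most 250 bp apart the share called was 6.38%. Beyond 5 kb from a start, it was 6.89%, with 58.6% intergenic summits, 34.0% soft-masked bases and 14 pluripotency genes. With DMSO thinned to the dTAG coverage there were 1269 peaks, 24.0% of the 5292 distal C29F4-free peaks left. Their ratio was 0.600, with 1 germ layer gene. The CTCF share was 0.666% in 100 bp and 2.66% in 400 bp. Within 20 and 100 kb, 0 and 4 germ layer genes and 24 and 31 pluripotency genes had a peak, against 9.1% and 24.1% of protein-coding genes. At the other alternative settings the share of protein-coding genes was not counted, so those gene counts have no matching background. The gene and KLF, POU and ESRRB alternatives were added after the values were seen. Peaks with few fragments limit every count here.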
